A study of Mus musculus with 2 samples.

Results

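Naive-like CD8 T cells were taken from the spleens of mice 8 days after infection (dpi) with LCMV-cl13, a lymphocytic choriomeningitis virus strain known for persistent infection of mice. They were chosen by a rule on raw counts of unique molecular identifiers (UMIs, each standing for 1 captured RNA molecule). A barcode needed at least 1 UMI each of Cd3e and Cd8b1, at most 1 UMI of Gzma and Gzmb together, and at least 2 UMIs of Lef1, Tcf7, Il7r and Ccr7 together. It also needed under 3 UMIs of Xcl1, Ifng and Tnfrsf9 together, none of Cd79a or Csf1r, at most 1 of Lyz2 and under 5 of Mzb1. The rule found 346 of 23397 barcodes, 288 of 14821 in PEP-WT and 58 of 8576 in PEP-619WW. Among barcodes with a UMI of both Cd3e and Cd8b1, here called CD8 T cells, these were 288 of 1439 and 58 of 953.

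PEP-WT were C57BL/6 mice with the wild type Ptpn22 allele, and PEP-619WW were C57BL/6 mice homozygous for a knock-in that places tryptophan at position 619 of PEP, the phosphatase that Ptpn22 encodes. Both groups received 1000000 PFU of virus, mice of the study were 6 to 12 weeks old, and 4 to 5 animals of a genotype were pooled and sorted for live CD45+ cells before 1 library was made. With 1 library per genotype no test between genotypes was possible, and a difference between pools, libraries or genotypes cannot be told apart. All intervals are 95% intervals that cover counting error only. The allele is carried by every cell of the animal, so other cells of the spleen differed in genotype too.

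The labels of both samples name liver, a Jurkat cell line and tumor infiltrating cells, while the study and the extraction protocol describe splenocytes. In the whole libraries, the hepatocyte gene Alb was at 0 UMIs in both, and the melanocyte gene Pmel was found in 35 barcodes of PEP-WT (0.236%) and 36 of PEP-619WW (0.420%). In the members, Alb, Apoa1, Ttr, Serpina1a and Fgb of hepatocytes and Pmel, Mlana, Dct, Tyrp1 and Tyr of melanocytes were at 0 UMIs. B cells made up the largest share of barcodes that was counted: at least 2 UMIs of Cd79a and none of Cd3e or Cd8b1 were found in 51.0% of barcodes of PEP-WT and 43.0% of PEP-619WW. A pair of count sets was deposited for each sample, and the barcode numbers in the study's methods are those of the set that was not used for the members. In that other set, Pmel was found in 6.48% and 1.07% of barcodes. Cd3e was found there in 0.755% of 9539 barcodes for PEP-WT and 11.99% of 11029 for PEP-619WW, and only 28 PEP-WT barcodes were CD8 T cells. The rule found 4 of those 28 (14.3%) and 123 of 394 in PEP-619WW (31.2%), a difference of 16.9 points (-0.82 to 26.7) that includes 0. The order was opposite to that of the set described here, which had Cd3e in 15.9% and 17.1% of barcodes. The myeloid gene Csf1r was found in 53.1% and 38.4% of barcodes of the other set, against 7.85% and 9.63% here. Between the libraries used, 39 barcode sequences were shared, 0.455% of the smaller library.

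A naive CD8 T cell has left the thymus but has not met its antigen. It recirculates through lymphoid organs with the help of CCR7, depends on interleukin 7, and is held in quiescence by transcription factors that include TCF1 (Tcf7), LEF1 and KLF2. During a viral infection these cells are bathed in type I interferon even when they do not recognize the virus, and interferon-stimulated genes mark that exposure. PEP removes activating phosphates from kinases near the T cell receptor.

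Naive-like CD8 T cells were less frequent in the PEP-619WW library. They made up 20.0% (17.97% to 22.2%) of the CD8 T cells of PEP-WT against 6.09% (4.65% to 7.80%) of those of PEP-619WW, a difference of -13.9 percentage points (-16.5 to -11.3) and a 3.29-fold lower share. The rule reads single UMIs and PEP-619WW barcodes were deeper, so each CD8 T cell was also drawn down to 2000 UMIs and the rule applied again. The shares were then 129 of 590 (21.9%) and 22 of 317 (6.94%), after 43 and 31 CD8 T cells with under 2000 UMIs were left out. Fewer barcodes then kept a UMI of both Cd3e and Cd8b1, which lowered both denominators. At 1000 UMIs they were 42 of 290 (14.5%) and 5 of 158 (3.16%). Granzyme-expressing cells, which met the limits on genes of other cells and on Xcl1, Ifng and Tnfrsf9 but had 2 or more UMIs of Gzma and Gzmb, made up 28.3% of the CD8 T cells of PEP-WT and 33.3% of those of PEP-619WW. Cytokine-expressing cells, which met the limits on genes of other cells but had 3 or more UMIs of Xcl1, Ifng and Tnfrsf9, made up 12.6% and 18.9%. Drawn down to 2000 UMIs, granzyme-expressing cells made up 42.2% and 55.2%, and cytokine-expressing cells 3.22% and 6.94%. The levels of these shares thus depended on depth. The share was read from the genes of the rule, so it is a description of these libraries.

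**Figure D1:**
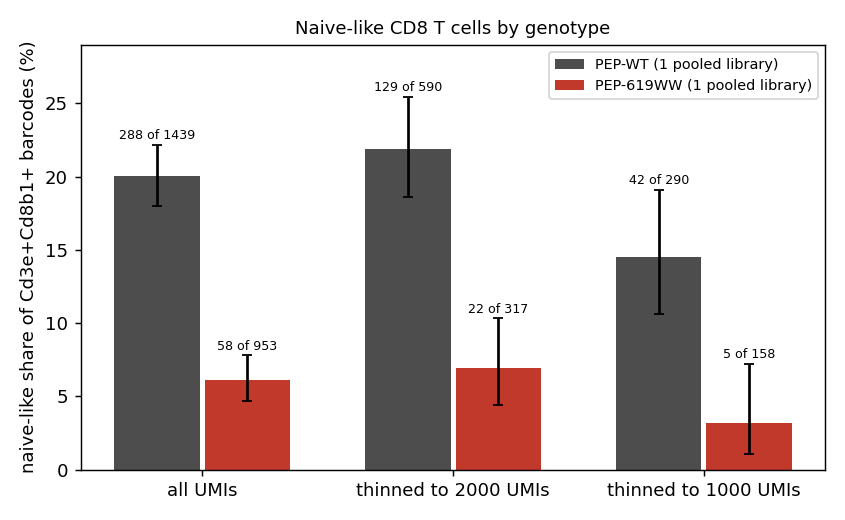
Bars show the naive-like share of Cd3e+Cd8b1+ barcodes (percent) in 1 pooled library per genotype, from all UMIs and after drawing each barcode down to 2000 or 1000 UMIs, with exact 95% binomial intervals and the counts above each bar. The PEP-619WW share lies below the PEP-WT share at each depth, at 6.09% against 20.0% with all UMIs.

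Of the conditions of the rule, the granzyme limit removed most cells. Of CD8 T cells, 62.9% in PEP-WT and 82.7% in PEP-619WW had 2 or more UMIs of Gzma and Gzmb. Fewer than 2 UMIs of Lef1, Tcf7, Il7r and Ccr7 were found in 54.5% and 61.2%, and the limits on genes of B cells, plasma cells and myeloid cells (Cd79a, Mzb1, Csf1r, Lyz2) were exceeded by 35.4% and 38.9%. Just inside the Lef1, Tcf7, Il7r and Ccr7 threshold, at 2 UMIs, were 31 PEP-WT and 2 PEP-619WW members, and just outside, at 1 UMI, were 32 and 13 barcodes. Ccl5 was found in 38.7% of the 31 and 46.9% of the 32 PEP-WT barcodes, and in 1 of the 2 and 11 of the 13 PEP-619WW barcodes. Just inside the granzyme threshold, at 1 UMI, were 32 and 14 members with Ccl5 in 62.5% and 71.4%, and just outside, at 2 UMIs, were 12 and 9 barcodes with Ccl5 in 83.3% and 100%.

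The median depth of members was 3683 UMIs for PEP-WT (range 682 to 28752). It was 6107 UMIs for PEP-619WW (range 2174 to 27197), and the members summed to 1312884 and 419949 UMIs. The median share of mitochondrial UMIs was 2.39% and 2.81%, and that of ribosomal protein genes was 36.2% and 33.3%. The co-receptor partner Cd8a, which the rule did not use, was found in 71.2% and 74.1% of members, against 1.02% and 1.82% of B cells (median 2690 and 3420 UMIs). Cd4 was found in 14 of 288 and 8 of 58 members (4.86% and 13.8%), against 0.555% and 0.650% of B cells.

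The members fit the label naive-like in part. Dapl1, a gene that marks naive CD8 T cells, was found in 28.1% of PEP-WT and 13.8% of PEP-619WW members, against 1.23% and 0.946% of the granzyme-expressing CD8 T cells. Ccl5, a chemokine that antigen-experienced CD8 T cells make and naive ones do not, was found in 39.2% and 50% of members, above the 10.2% and 20.5% of B cells that carried it. Drawn down to 2000 UMIs, Ccl5 was found in 32.2% of 273 and 36.2% of 58 members, a difference of 3.97 points (-8.58 to 17.9) that includes 0, against 95.6% and 98.1% of granzyme-expressing cells. The rule thus took in cells with Ccl5 beside cells without it in both libraries.

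Against granzyme-expressing CD8 T cells of the same library, and leaving out the genes of the rule, genes that stood high in members, by the smaller of the lower bounds of the ratio in both libraries, included Rgs10, Ikzf2, Slamf6 and Inpp4b. Slamf6, a surface receptor of naive and stem-like CD8 T cells, was at 267 counts per 1000000 UMIs (CPM) in PEP-WT members and 59.2 in PEP-WT granzyme-expressing cells. In PEP-619WW it was at 293 and 65.0. Bcl2, which protects resting T cells from death, was at 301 against 111 in PEP-WT and at 364 against 128 in PEP-619WW. Klrg1, a receptor of terminal effector cells, was at 6.09 in members and 109 in granzyme-expressing cells of PEP-WT, and at 2.38 and 74.6 in PEP-619WW. These genes were chosen after their values were seen, and they describe the cells that the rule selected.

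The genotypes were compared by summing UMIs over all members of a library. Of 13177 genes with a UMI, 2286 that the rule did not use had at least 100 UMIs over both libraries, and their median log2 ratio of PEP-619WW over PEP-WT was 0.03. Past 1.5-fold, 127 genes were higher in PEP-619WW (5.56%) and 81 were lower (3.54%). This split depended on the scaling: per total without immunoglobulin, hemoglobin, mitochondrial and ribosomal genes, 102 were higher and 107 lower, and at 2000 UMIs a member 29 were higher and 40 lower of 782 genes. It also depended on membership: without members that held a UMI of 6 cycling genes, 46 were higher and 56 lower of 1168 genes. In simulated counts at this depth with no difference, 2.20% of genes passed 1.5-fold in either direction, and of 200 genes simulated with a 2-fold difference 93.5% passed it. The simulation held counting error only, with no spread between cells or libraries, so 2.20% is not a chance rate for these members.

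Interferon-stimulated genes were lower in PEP-619WW members. Of 60 genes of the list, 58 were matched and 41 had enough UMIs, and 13 of these were past 1.5-fold lower and 0 past it higher, against 3.54% and 5.56% of all genes. Their median log2 ratio was -0.42, and 36 of 41 were below 0. The count past 1.5-fold lower was 7 of 41 by the mean of per-member CPM, against 80 of 2286 over all genes. It was 4 of 21 at 2000 UMIs a member, against 40 of 782. Without members that held a UMI of 6 cycling genes it was 6 of 32, against 56 of 1168. Among members without a UMI of 8 genes of other cells (106 and 20 remained), 1 of 17 was lower and 1 higher, with a median of -0.10. Over all genes 29 were lower and 34 higher of 599 there. Isg15, a ubiquitin-like protein that interferon induces, had 450 UMIs in PEP-WT and 80 in PEP-619WW, or 343 and 190.5 CPM, a log2 ratio of -0.85 (-1.21 to -0.50). Samd9l, an antiviral restriction factor, was at 174 and 73.8 CPM (-1.23, interval -1.82 to -0.69). Oas3, which senses double-stranded RNA, was at 76.9 and 31.0 (-1.31, -2.27 to -0.47). Each of these 3 genes was lower in PEP-619WW, and none of their intervals reached 0.

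Promoter stretches of 5 of the interferon-stimulated genes past 1.5-fold lower are shown because such genes are known to be induced through the interferon-stimulated response element. The 250 bases before the start of each gene were searched on both strands for GAAANNGAAA, where N is any base, and overlapping matches were counted apart. Of the 13 genes, 12 had a RefSeq entry (GRCm38.p6), and 8 of these held a match, against 3.46% of 27025 genes with an entry. Among the genes of the list not past 1.5-fold, 9 of 20 held one. The stretches below are written 5′ to 3′ on the strand of the gene, with the letters of a match, or of its reverse complement TTTCNNTTTC, in capitals.
Isg15 (chr4:156200865-156200906, minus strand): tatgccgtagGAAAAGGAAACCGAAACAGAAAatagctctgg
Bst2 (chr8:71537577-71537612, minus strand): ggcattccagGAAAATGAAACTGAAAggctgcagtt
Ifit1 (chr19:34640775-34640823, plus strand): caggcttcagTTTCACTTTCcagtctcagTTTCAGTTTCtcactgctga
Oas3 (chr5:120777715-120777744, minus strand): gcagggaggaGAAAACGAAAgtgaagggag
Ifi206 (chr1:173491339-173491368, minus strand): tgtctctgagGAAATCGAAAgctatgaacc
None of these stretches overlaps an exon of the annotation used (GENCODE vM21). The Isg15 stretch holds 3 overlapping matches, the first of which begins 78 bases before the start, and Bst2 and Ifit1 hold 2 each. A match describes letters of the reference genome only.

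Bst2, or tetherin, holds budding virions at the membrane, and it was at 463 CPM in PEP-WT and 283 in PEP-619WW (-0.71, -1.004 to -0.42). Ifit1, which binds viral RNA, was at 124 and 64.3 (-0.95, -1.59 to -0.36). Ifi206, of the interferon-inducible p200 family, was at 163 and 100 (-0.70, -1.22 to -0.22). The other members past 1.5-fold were the transcription factors Irf7 (-0.86) and Irf9 (-0.61) and the genes Ifi213 (-0.88), Herc6 (-0.96), Parp14 (-0.60), Slfn5 (-0.61) and Slfn8 (-0.68). For Irf9 the interval reached 0 (-1.28 to 0.01). The p200 and Slfn families have close paralogs, so counts of single members are uncertain.

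Not every interferon-stimulated gene was lower. Ly6e, a surface protein of the list, was at 767 CPM in PEP-WT and 900 in PEP-619WW (0.23, 0.06 to 0.40). Ifi27l2a, the member with most UMIs, was at 3254 and 2972 (-0.13, -0.22 to -0.04), and Ly6a at 772 and 729 (-0.08, -0.27 to 0.10). Ifi27l2a, Ly6e and Ly6a, among the 4 members with most UMIs, thus stood closer to 0 than Isg15 or Oas3.

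**Figure D2:**
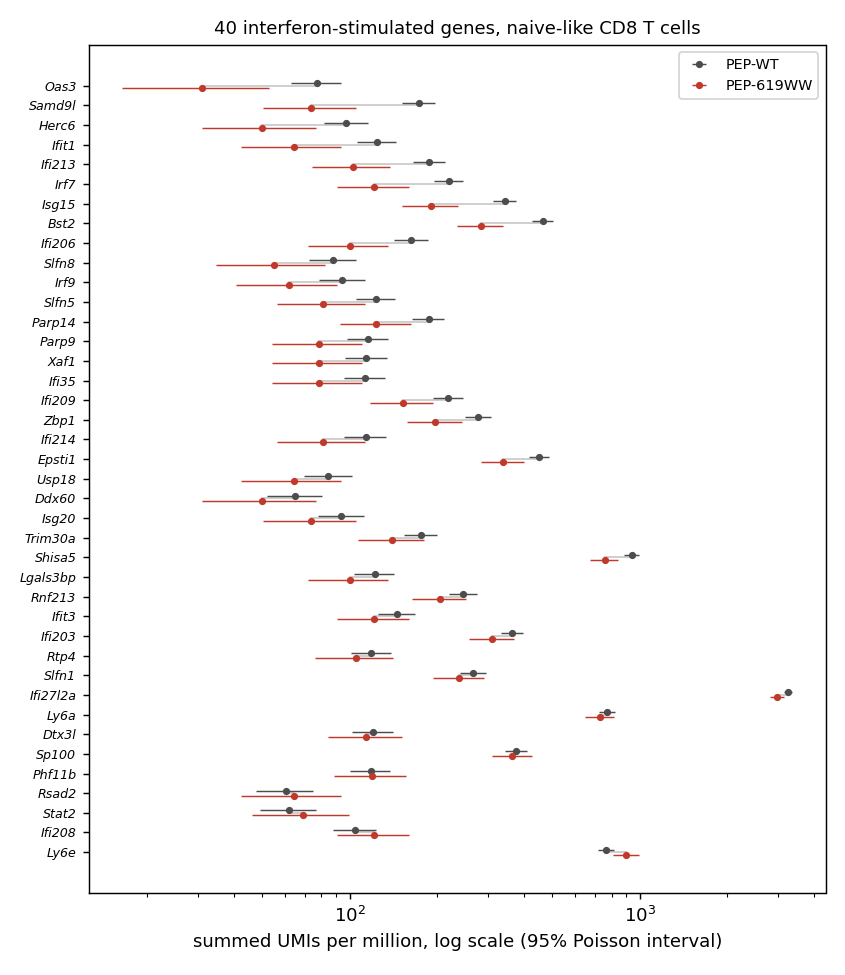
Points show CPM (log axis) summed over PEP-WT and PEP-619WW members for 40 interferon-stimulated genes with at least 100 UMIs, with 95% Poisson intervals, ordered by ratio. PEP-619WW lies below PEP-WT for 35 of the 40 drawn, by most for Oas3 and Samd9l, and above it for Ly6e.

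The lower interferon-stimulated level showed in the median of members as well as in the summed counts. Summed over the list, each member's UMIs per 10000 had a median of 124.5 in PEP-WT (range 44.5 to 355) and 99.2 in PEP-619WW (40.4 to 295), so the libraries overlapped widely. Of 58 PEP-619WW members, 40 (69.0%) lay below the PEP-WT median, a count of cells within 1 pooled library. Among members with a UMI of 6 cycling genes (74 and 27), the medians were 117.2 in PEP-WT and 93.4 in PEP-619WW. Among members without one they were 126.4 and 111.5. Isg15 was found in 55.2% and 53.4% of members, and in 37.4% of 273 and 27.6% of 58 after drawing down to 2000 UMIs, a difference of -9.78 points (-21.2 to 4.00) that includes 0. Ifit3 was found in 26.4% and 24.1% at 2000 UMIs. The share of members with a UMI was thus not distinguishable at this number of cells, whereas the summed counts differed. Without members that held a UMI of 6 cycling genes (214 and 31 remained), 32 genes of the list had enough UMIs. Of these, 6 were past 1.5-fold lower and 1 higher, against 56 and 46 of 1168 over all genes, and the median was -0.17.

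The same list was lower in PEP-619WW in other CD8 T cells and in B cells of these libraries, but not in the CD4 T cells compared. Its summed level in members was 13109 CPM in PEP-WT and 10780 in PEP-619WW, a log2 ratio of -0.28 (-0.33 to -0.23). In granzyme-expressing CD8 T cells the ratio was -0.49 (-0.51 to -0.46), in cytokine-expressing CD8 T cells -0.30 (-0.34 to -0.27), and in B cells -0.53 (-0.53 to -0.52). In naive-like CD4 T cells, chosen by the same limits with Cd4 in place of Cd8b1 and no UMI of Cd8a or Cd8b1 (147 and 111 barcodes), it was 0.08 (0.04 to 0.12). The medians over genes of the list with enough UMIs were -0.42 in members, -0.26 in granzyme-expressing and -0.17 in cytokine-expressing CD8 T cells. They were -0.75 in B cells and 0.11 in naive-like CD4 T cells. The order of the CD8 groups thus differed between sum and median. Isg15 itself was at -1.23 in granzyme-expressing CD8 T cells and 0.02 in naive-like CD4 T cells. Free RNA in the droplets was not removed, and Isg15 was found in 33.7% of PEP-WT and 21.0% of PEP-619WW B cells, so its part in the values of the members was not tested.

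Genes that interferon gamma induces were lower in sum, at 1987 and 1550 CPM (-0.36, -0.48 to -0.23). Of 12 guanylate-binding proteins, immunity-related GTPases and related genes with enough UMIs, 2 were past 1.5-fold lower and 0 higher, with a median of -0.36. Over all genes these shares were 3.54% and 5.56%. By the mean of per-member CPM, 0 of the 12 were lower and 1 higher, with a median of -0.18. Over all genes 80 were lower and 140 higher of 2286 there. Irf1, a transcription factor of this response, was at 168 and 102 CPM (-0.72, -1.22 to -0.24), and Gbp6 was at 75.4 and 45.2 (-0.74, -1.53 to -0.02). Drawn down to 2000 UMIs, 8 genes of the list had enough UMIs, with a median of 0.12, so its direction turned. Of 17 MHC class I genes none was past 1.5-fold, with a median of -0.14. B2m, the light chain of MHC class I, was at 2033 and 2248 (0.14, 0.04 to 0.25), and the heavy chain gene H2-K1 at 2940 and 2515 (-0.23, -0.33 to -0.13). Of 12 receptor, JAK-STAT and suppressor genes, 2 were past 1.5-fold lower and 0 higher, against 3.54% and 5.56% of all genes. They were Irf9, above, whose interval reached 0, and Socs3, a feedback inhibitor of cytokine receptors (75.4 and 42.9, or -0.81, -1.63 to -0.08).

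In summed counts, genes of naive identity were mostly lower in PEP-619WW members by less than 1.5-fold. Of 14 genes with enough UMIs, 13 were below 0, 2 were past 1.5-fold lower and 0 higher, against 3.54% and 5.56% of all genes, with a median of -0.19. Without members that held Ccl5, Gzma or Gzmb, 5 of 12 were past 1.5-fold lower, against 65 of 1004 over all genes, and the median was -0.47. The median was above 0 in 3 other choices of members. By the mean of per-member CPM it was -0.045. Summed over the list, each member's UMIs per 10000 had a median of 57.17 in PEP-WT and 57.35 in PEP-619WW. The lower level thus did not show in the median member. Dapl1 (chromosome 2, 59484653 to 59505020, plus strand, GRCm38), had 252 UMIs in 81 of 288 PEP-WT members and 24 UMIs in 8 of 58 PEP-619WW members. That is 192 and 57.2 CPM (-1.75, -2.42 to -1.14), and 1 PEP-619WW barcode held 33.3% of its UMIs. Drawn down to 2000 UMIs, Dapl1 was found in 24.2% and 6.90% of members, a difference of -17.3 points (-24.1 to -6.65), with 0.771% and 0.319% in granzyme-expressing cells. Members were chosen at full depth before this, so drawing down did not even out how depth entered their selection. Klf2 (694 and 633 CPM) and Ms4a4b (2066 and 1988 CPM), both highly expressed in resting T cells, had intervals of the ratio that reached 0.

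The genes of the rule cannot serve as evidence and are given as a description. Lef1 was at 331 CPM in PEP-WT and 245 in PEP-619WW, Tcf7 at 494 and 402, Il7r at 401 and 333, and Ccr7 at 125 and 83.3. The rule set a number of their UMIs without regard to depth, and PEP-619WW members were deeper, so no direction was read from them. The sum of these 4 had a median of 6 and 7 UMIs per member, or 13.3 and 11.2 per 10000. Cd3e was at 412 and 390.5 and Cd8b1 at 756 and 679.

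Genes of memory and effector cells were on balance higher in PEP-619WW members. Of 16 with enough UMIs, 7 were past 1.5-fold higher and 2 past it lower, against 5.56% and 3.54% of all genes, with a median of 0.31. S100a4, a calcium-binding protein of motile and antigen-experienced T cells (chromosome 3, 90603771 to 90606045, plus strand), was at 855 CPM in PEP-WT and 1919 in PEP-619WW (1.17, 1.03 to 1.30). Its relative S100a6 was at 1133 and 2277 (1.01, 0.89 to 1.12). S100a4 was found in 31.9% and 55.2% of members. Itgb1, the beta 1 integrin chain, was at 246 and 543 (1.14, 0.89 to 1.39), and Ahnak, a large scaffold protein that is not in the list, at 223 and 498 (1.16, 0.89 to 1.42). Id2, a transcriptional regulator of effector cells, was at 125 and 252 (1.01, 0.65 to 1.38), Il18r1 at 132 and 293 (1.14, 0.80 to 1.48), the interleukin 2 and 15 receptor chain Il2rb at 173 and 264 (0.61, 0.27 to 0.95), and the chemokine receptor Cxcr3 at 104 and 160 (0.62, 0.18 to 1.05). Drawn down to 2000 UMIs, Cxcr3 was found in 13.6% and 25.9% of members, a difference of 12.3 points (1.75 to 25.3), against 2.68% and 4.14% of B cells. The like differences for Il2rb (7.33 points, -4.09 to 20.8), Cd44 (5.48, -1.60 to 16.6) and Ly6c2 (-1.36, -15.1 to 10.5) had intervals that included 0.

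Eomes, Klrk1 and Ly6c2, which also mark memory CD8 T cells, stood the other way. Eomes, a T-box transcription factor (chromosome 9, 118478212 to 118486132, plus strand), had 95 UMIs in PEP-WT and 9 in PEP-619WW, or 72.4 and 21.4 CPM (-1.75, -2.93 to -0.77). The activating receptor Klrk1 was at 72.4 and 42.9 (-0.76, -1.57 to -0.02), and Ly6c2 at 1235 and 938 (-0.40, -0.56 to -0.24). Members in PEP-619WW thus had more of S100a4, Itgb1, Id2 and Il18r1 and less of Eomes. Without members that held Ccl5, Gzma or Gzmb (163 and 25 remained), 10 genes of the list had enough UMIs. Of these, 3 were past 1.5-fold higher and 1 lower, against 67 and 65 of 1004 over all genes, and the median was -0.08. With 50 UMIs as the minimum over all members it was 0.08 over 20 genes. S100a4, Itgb1, Id2 and Ahnak were past 1.5-fold higher in all 9 alternatives of depth, scaling and membership, and Eomes and Dapl1 were past it lower in all 9. Il18r1 was past it in 8, S100a6 in 8, Il2rb in 6 and Cxcr3 in 3. All 9 reuse members of the same libraries, chosen at full depth, so they are not replicates.

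S100a4 and Itgb1 were also higher in PEP-619WW naive-like CD4 T cells, with log2 ratios of 0.75 (0.63 to 0.86) and 0.78 (0.53 to 1.03). In granzyme-expressing CD8 T cells the ratios were 0.46 (0.41 to 0.50) and 0.15 (-0.03 to 0.33). Eomes was at -0.65 (-1.10 to -0.19) in granzyme-expressing CD8 T cells, and Dapl1, with 13 and 18 UMIs there, at 0.36 (-0.75 to 1.51). Dapl1 was lower in PEP-619WW in cytokine-expressing CD8 T cells, with 70 and 9 UMIs (-3.09, -4.27 to -2.08), and in naive-like CD4 T cells, with 27 and 4 UMIs (-2.74, -4.71 to -1.22). None of these differences between cell groups was tested.

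**Figure D3:**
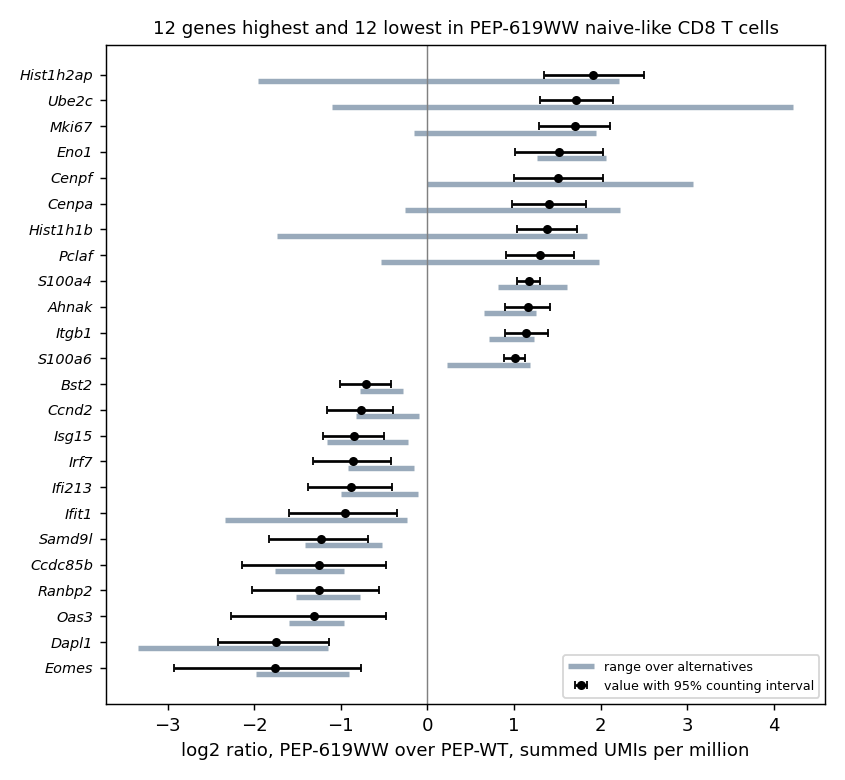
Black points show the log2 ratio of PEP-619WW over PEP-WT in members with its 95% counting interval for the 12 genes highest and the 12 lowest by the bound nearest 0, and bars show the range of each over up to 9 alternatives of depth, scaling and membership. The ranges of S100a4, Itgb1, Ahnak, Eno1, Dapl1 and Eomes stay on one side of 0, while those of Mki67, Pclaf, Hist1h1b and Ube2c cross it.

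Of 9 genes of the exhaustion list with enough UMIs, 2 were past 1.5-fold higher and 1 lower, against 5.56% and 3.54% of all genes. The inhibitory receptor Lag3 was at 60.9 and 145 CPM (1.25, 0.75 to 1.75), and Tox, a transcription factor of exhausted cells, at 101 and 186 (0.87, 0.45 to 1.29). The one lower was Eomes, above. Slamf6 was at 267 and 293 (0.13, -0.18 to 0.43). Pdcd1 was found in 13.9% and 27.6% of members with all UMIs but in 6.96% and 3.45% after drawing down to 2000 UMIs, so no direction was read from it.

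Cell cycle genes were higher in PEP-619WW members, and this rested on few cells. Of 13 genes with enough UMIs, 8 were past 1.5-fold higher and 0 lower, against 5.56% and 3.54% of all genes, with a median of 0.87. Mki67, which marks cycling cells, was at 76.9 and 250 CPM (1.70, 1.29 to 2.11), from 30 of 288 and 13 of 58 members. Ube2c was at 70.1 and 231 (1.72, 1.29 to 2.15), Pclaf at 97.5 and 240.5 (1.30, 0.91 to 1.69) and Hist1h1b, a linker histone with many close copies, at 118 and 307 (1.38, 1.03 to 1.73). At least 3 UMIs of Mki67, Top2a, Birc5, Pclaf, Cdk1 and Ccnb2 were found in 29 PEP-WT members (10.1%) and 11 PEP-619WW members (19.0%), with median depths of 8166 and 13940 UMIs. Drawn down to 2000 UMIs, these were 13 of 273 (4.76%) and 8 of 58 (13.8%), a difference of 9.03 points (1.66 to 20.3). At least 1 UMI of the 6 genes was then found in 46 of 273 and 13 of 58 (22.4%). That difference was 5.56 points (-4.52 to 18.4), which includes 0, so the result depended on the cut.

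The 11 PEP-619WW members with 10000 or more UMIs held 40.4% of that library's member UMIs and 79.0% of its cell cycle UMIs. In PEP-WT, 11 such members of 288 held 11.5% and 41.7%. Among members with under 10000 UMIs (277 and 47), the cell cycle list had 6 genes with enough UMIs and a median of -0.01, and Mki67 was at -0.15. Dapl1 and S100a4 kept their direction there, and the median of the interferon-stimulated list was -0.27. Whether a deep cycling barcode holds 1 cell or a doublet was not tested.

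**Figure D4:**
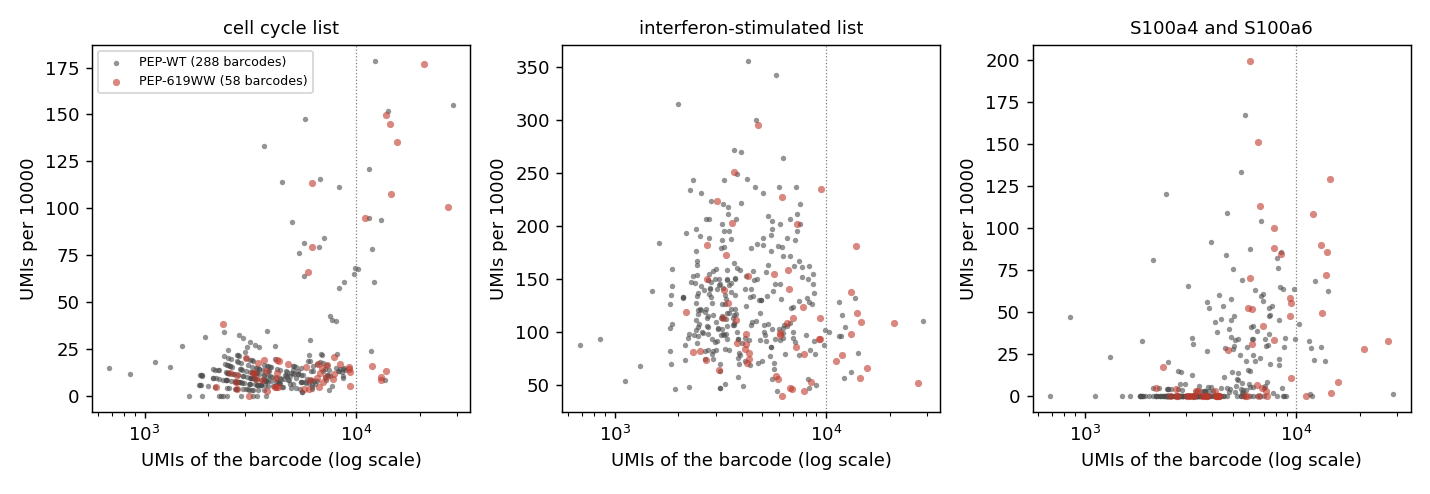
Each point is 1 member (288 PEP-WT, 58 PEP-619WW), placed by its UMIs (log axis) and by its UMIs per 10000 of the cell cycle list, the interferon-stimulated list, or S100a4 and S100a6; the dotted line marks 10000 UMIs. Members with 10000 or more UMIs hold 79.0% of the cell cycle UMIs in PEP-619WW and 41.7% in PEP-WT. In PEP-WT, high values also occur at lower depth. Interferon-stimulated values overlap between libraries at the depths that both cover, with medians of 124.5 in PEP-WT and 99.2 in PEP-619WW.

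In the other T cells the cell cycle list stood the other way. Its summed level was 2786 and 4813 CPM in members (0.79, 0.71 to 0.87), 7437 and 4958 in granzyme-expressing CD8 T cells (-0.59, -0.62 to -0.55), and 3929 and 2860 in naive-like CD4 T cells (-0.46, -0.54 to -0.37). The difference between these cell groups was not tested.

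**Figure D5:**
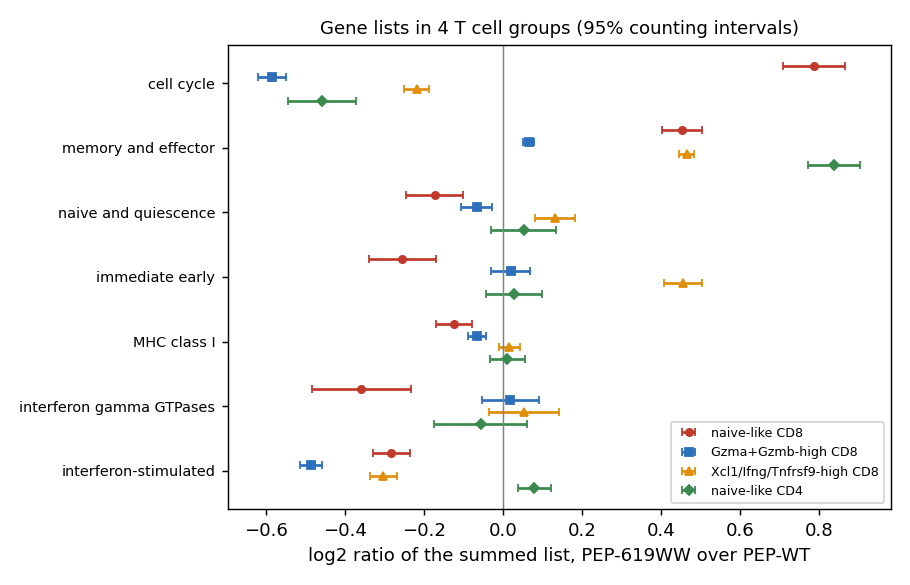
Points show the log2 ratio of PEP-619WW over PEP-WT for the summed UMIs of 7 gene lists in naive-like CD8 T cells and 3 other T cell groups of the same libraries, with 95% counting intervals. The cell cycle list lies at 0.79 in naive-like CD8 T cells and below 0 in the other groups, and the interferon-stimulated list lies below 0 in the 3 CD8 groups.

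T cell receptor signaling genes did not stand apart from the median of all genes. Of 32 with enough UMIs, 1 was past 1.5-fold higher and 0 lower, against 5.56% and 3.54% of all genes, with a median of -0.01, and the exception was Themis, an adaptor of the receptor (112 and 193 CPM, 0.78, 0.38 to 1.19), which was at -0.01 without members that held a UMI of the 6 cycling genes. Ptpn22 (chromosome 3, 103859795 to 103912247, plus strand) was at 189 and 238 (0.33, -0.02 to 0.67), from 149 and 43 members. The knock-in changes the coding sequence, so its level does not check the labels. Immediate early genes, which stimulation or handling of cells induces within minutes, were past 1.5-fold lower for 8 of 17 genes, against 3.54% of all genes, with a median of -0.40. Jun was at 134 and 81.0 (-0.73, -1.30 to -0.19), Junb at 382 and 252 (-0.60, -0.91 to -0.29), and Cd69, an early activation marker that also holds cells in tissue, at 177 and 112 (-0.66, -1.14 to -0.20). Drawn down to 2000 UMIs, 8 genes had enough UMIs and their median was 0.09, with 0 past 1.5-fold. Over all genes 29 were higher and 40 lower of 782 there. At full depth, the 9 genes with 200 or more UMIs had a median of -0.09. Of these, 3 were past 1.5-fold lower, against 24 of 1094 over all genes. Depth and the genes compared thus changed together, and the direction of the list did not hold. Of 6 heat shock genes, 0 were past 1.5-fold.

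Among survival genes 1 of 8 was past 1.5-fold higher and 0 lower, against 5.56% and 3.54% of all genes, with a median of 0.21. The one was Bcl2l11, which encodes the death-promoting BIM (0.59). Bcl2 was at 301 and 364 CPM (0.28, with an interval that reached 0) and Mcl1 at 247 and 169 (-0.55, -0.94 to -0.17). None of 8 Gimap genes, GTPases of resting lymphocytes, was past 1.5-fold, with a median of -0.03. Of 6 genes of the common gamma chain receptors, 1 was past it higher, Il2rb, and 1 lower, Socs3, both above, against 5.56% and 3.54% of all genes. Homing receptors had 2 of 14 past it higher (Cxcr3 and Itgb1) and 2 lower, Cd69 among them, against 5.56% and 3.54% of all genes.

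Of genes in no list, Eno1, an enzyme of glycolysis, was higher in PEP-619WW members, at 54.1 and 155 CPM (1.52, 1.01 to 2.02), and past 1.5-fold in all 9 alternatives. Ranbp2, a nuclear pore protein, was at 108 and 45.2 (-1.26, -2.03 to -0.56), Ccdc85b at 85.3 and 35.7 (-1.26, -2.14 to -0.47), and Ccnd2, a cyclin of the first growth phase, at 289 and 169 (-0.77, -1.16 to -0.40). Ranbp2 and Ccdc85b were past 1.5-fold in all 9, and Ccnd2 in 3.

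Markers of other cells moved with genotype too. The erythroid list was at 2338 CPM in PEP-WT and 143 in PEP-619WW members, with 7 of 7 genes detected, and hemoglobin genes, some of which are near-identical copies, took 0.225% and 0.0126% of UMIs. For each of the 4 hemoglobin genes with enough UMIs, a single PEP-WT barcode held from 60.4% to 73.1% of the UMIs. Hbb-bs was found in 38.9% and 17.2% of members, and the same list differed in B cells by a log2 ratio of -3.04. Of the 14 B cell genes, all with a UMI, Cd74, H2-Aa and H2-Eb1 were lower in PEP-619WW (Cd74 at 152 and 31.0 CPM), while Igkc was at 946 and 1195 and was found in 93.8% and 100% of members. The sum of the list was 1735 and 1679. Plasma cell genes summed to 412 and 571 with Sdc1 at 0, neutrophil genes to 151 and 155 with Ly6g at 0, macrophage or monocyte genes to 155 and 92.9, and NK genes to 81.5 and 23.8 with Klra8 at 0. CD4 T cell genes summed to 98.3 and 210, with 6 of 6 detected and Tnfrsf4 at 51.8 and 112. Gamma delta T cell genes had 7 and 1 UMIs, with Tcrg-C1 and Trdv4 at 0, and dendritic cell genes summed to 158 and 121 with Flt3 and Xcr1 at 0. Among members without a UMI of 8 such genes, Dapl1 was at -3.34 and S100a4 at 0.82.

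Xist was found in 77.8% and 75.9% of members and the Y-linked Ddx3y, Eif2s3y, Kdm5d and Uty were at 0 UMIs in both. Variable gene segments of the receptor beta chain were found in 56 of 288 PEP-WT members, enough to describe, with 16 Trbv genes over 61 UMIs and Trbv19 the most frequent at 9 UMIs. Under 50 PEP-619WW members held one, so they were not compared.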

How the data were processed

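Splenic CD45+ cells, pooled by genotype, were profiled by 10x Genomics 3′ single cell RNA sequencing. The authors deposited raw UMI counts for each gene in each barcode, aligned to the mm10 mouse transcriptome with Cell Ranger (version 6.1.1 in the study's methods, 6.0.0 in the submitters' processing notes). Of 2 deposited sets of counts per sample, 1 was used, and the sources used here do not say how the sets relate. Barcodes had 500 or more UMIs as deposited (77916082 UMIs in PEP-WT, 56745578 in PEP-619WW; medians 2832 and 3293).

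Identifiers were matched to symbols for 32158 of 32285 genes. No filter on genes or mitochondrial share, no correction for free RNA and no doublet caller was applied; members without UMIs of 8 genes of other cells served as an alternative. UMIs were summed over members, and ratios are per 1000000 UMIs (CPM), with exact 95% intervals of the ratio of 2 Poisson counts. Shares have exact Clopper-Pearson intervals and differences Newcombe intervals. Genes with 100 or more UMIs over members were compared, and 1.5-fold was the limit. Members and gene lists were chosen with earlier results of these data known. Named were the 12 genes highest and 12 lowest by the bound nearest 0, leaving out genes of the rule, other-cell lists, immunoglobulin and hemoglobin, then the 4 members of each list with most UMIs, every list member past 1.5-fold whose interval excludes 0, and Ptpn22. Genes of the check of cell identity (Cd8a, Cd4, Pdcd1, Ifit3) and those set against granzyme-expressing cells were chosen after values were seen. Some genes of the lists are not reported here by name, though list counts, medians and sums hold them. Alternatives covered the fold, the count minimum, depth, scaling, membership and the other deposited counts. Variable segments were described for libraries in which 50 or more members held one. Drawing down was done at random without replacement. The rule was applied again after it only for the shares of CD8 T cells. Elsewhere members kept their selection at full depth. The ratio was tested on simulated data with 2292 genes (rule genes included) and counting error only. Python 3.11.15, numpy 2.4.6, scipy 1.17.1 and matplotlib 3.10.9 were used.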

Additional observations from a re-analysis of the deposited data

Results flagged for a closer look

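The cell cycle list stood in opposite directions in 2 groups of CD8 T cells under the same comparison. Its summed level had a log2 ratio of PEP-619WW over PEP-WT of 0.79 in naive-like CD8 T cells and -0.59 in granzyme-expressing CD8 T cells, and neither counting interval reached 0. The difference between the groups was not tested, and with 1 library per genotype there is no spread between samples to set it against. The value of 0.79 rests on deep barcodes, of which 11 PEP-619WW members with 10000 or more UMIs held 79.0% of the UMIs of the list.

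In the second deposited set of counts, used above only for the naive-like share and for marker shares, the rule found 123 naive-like CD8 T cells in the PEP-619WW sample. Ccl5 was found in 54.5% of them, Dapl1 in 23.6% and Isg15 in 6.504%. The PEP-WT sample of that set held 4, too few to compare.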

How the results depend on the processing

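No paired analysis was possible because each genotype had 1 library and the labels give no shared replicate numbers, and for the same reason no replicate could be left out. The alternatives without cycling members and with members under 10000 UMIs were chosen after seeing the data, and the cause of the changes below was not tested. The lower naive-like share in PEP-619WW kept its direction at both depths and both stricter rules, with differences from -14.9 to -11.3 points, and reversed to 16.9 points in the other deposited counts, where 28 PEP-WT barcodes entered.

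The count of 127 genes higher in PEP-619WW was 30 at 2-fold, 396 and 38 with 50 or 200 UMIs as the minimum, 29 at 2000 UMIs a member, 34 without UMIs of other-cell genes, 67 without Gzma, Gzmb or Ccl5, 46 without cycling genes and 75 under 10000 UMIs. The 81 lower genes were 18, 246, 24, 40, 29, 65, 56 and 68 in the same order, so lower genes outnumbered higher ones at 2000 UMIs and without cycling genes. Fewer members or UMIs left fewer genes above the minimum.

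The median of the interferon-stimulated list stayed below 0 in all 11 alternatives, from -0.71 to -0.10. At 2000 UMIs the medians were 0.12 for the interferon gamma list and 0.088 for immediate early genes, with Gbp6 at 0.13 and Parp14 at 0.022. Without UMIs of other-cell genes they were 0.10 for the naive list, 0.078 for immediate early, 0.084 for MHC class I, 0.32 for cell cycle and 0.60 for memory and effector genes, with Hist1h1b at -1.74, Hist1h2ap at -1.95, Pclaf at -0.54, Ier2 at 0.41, Irf1 at 0.077 and Slfn8 at 0.14. Without Gzma, Gzmb or Ccl5 they were 1.38 for cell cycle, -0.082 for memory and effector genes, 0.11 for immediate early genes, -0.47 for the naive list and -0.57 for the interferon gamma list, with Cd69 at 0.18. Without cycling members they were 0.074 for the interferon gamma list, 0.018 for cell cycle and 0.18 for the naive list, with Cenpa at -0.25, Hmgn2 at -0.10, Stmn1 at -0.69, Themis at -0.015 and Ube2c at -1.10. Under 10000 UMIs they were -0.012 for cell cycle, 0.064 for the naive list and 0.55 for memory and effector genes, with Ccnb2 at -0.42, Hist1h1b at -1.43, Hmgb2 at -0.16, Mki67 at -0.15 and Pclaf at -0.14. With 50 UMIs as the minimum the memory and effector median was 0.077. Of 60 named genes, none reversed under the 2 other scalings, the mean of per-member CPM or the filter on genes and mitochondrial share. With 58 PEP-619WW members, a gene under 100 UMIs over all members was not compared, except where the minimum was 50. The minimum was not applied again to single named genes within an alternative. Their values there are given without intervals and can rest on few UMIs.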
